A study of Mus musculus with 20 samples.

Results

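The perineuronal net and lectican genes are 10 genes taken by name: the lecticans Acan, Bcan, Ncan and Vcan, the link protein genes Hapln1 and Hapln4, the tenascin genes Tnr and Tnc, the receptor phosphatase gene Ptprz1 and the hyaluronan synthase gene Has3. All 10 were found among the 46078 genes of the count tables, and all 10 were among the 16758 genes that passed the filter on low counts over the 20 libraries. Their RNA was counted by bulk sequencing of poly(A)-selected libraries from the brains of wild-type C57BL/6J male mice, 18 months old, at 7 weeks after DH stroke, in which an occlusion of the distal middle cerebral artery is combined with hypoxia. Tissue was taken beside the infarct (peri-infarct) and at the matching place in the other hemisphere (contralateral). Mice had received subcutaneous injections of vehicle (sterile PBS) or of HPBCD (hydroxypropyl-β-cyclodextrin, a cyclic sugar that takes up cholesterol and other lipids) at 4 g/kg, 3 times per week for 6 weeks, from 1 week after stroke. This gives 4 groups of 5 libraries. Every animal had a stroke, so the contralateral tissue is the only reference for the peri-infarct tissue, and there was no group without a stroke.

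Perineuronal nets are lattices of extracellular matrix that wrap the cell body and proximal dendrites of certain neurons, best known on the fast-spiking interneurons that contain parvalbumin. Their backbone is hyaluronan, made at the cell surface by hyaluronan synthases such as Has3. Lecticans, which are proteoglycans that carry chondroitin sulfate chains, bind hyaluronan at one end and tenascins at the other. Link proteins lock the lectican to the hyaluronan, and tenascin-R ties lecticans together. Ptprz1 encodes a receptor phosphatase whose secreted form, phosphacan, is a chondroitin sulfate proteoglycan that binds tenascins. After an injury to the brain, lecticans and tenascin-C also build up in the glial scar.

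The libraries held 14445021 to 22171627 gene counts. HPBCD contralateral replicate 4 stood apart: it held the fewest counts, 9.50% of its read pairs fell in no gene and 8.03% were ambiguous, against medians of 5.15% and 4.09% over all 20 libraries. Vehicle contralateral replicate 1 held striatal neuron markers at a summed 3375 CPM, against a median of 248 CPM in its group. CPM are counts scaled to a common library total, with TMM factors over the 20 libraries. A check of the treatment labels used 32 tested genes that the study's text names with a direction for treated peri-infarct tissue. In the libraries as labelled 0 of the 32 moved that way and 32 moved the other way, 18 of them past the test. The treatment groups are therefore called by their labels throughout, and the direction of every treatment difference depends on those labels. The treatment labels of peri-infarct libraries may be exchanged, or the study's text may name the directions of the opposite contrast. The files do not settle which. An exchange in peri-infarct tissue alone would also change the regional values, the interaction and the same-numbered pairs given below.

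The genes spanned a wide range of RNA levels. Per kilobase of exon, the scale on which genes can be set against each other, the level of Bcan in vehicle contralateral tissue was 57.7 ± 5.07 CPM per kb (SD, n = 5), the highest of the 10. Bcan encodes brevican, a lectican made largely by astrocytes. Hapln4 (36.6 ± 5.04 CPM per kb), which encodes the brain link protein Bral2, and Ncan (31.6 ± 1.83), which encodes neurocan, came next, and the ranges of these neighbours overlapped. Ptprz1 (12.2 ± 1.54) and Tnr (10.3 ± 2.19) overlapped as well. Hapln1, the link protein of cartilage and of nets, stood alone at 4.36 ± 0.194 CPM per kb. The lowest levels belonged to Vcan (0.761 ± 0.165), Acan (0.638 ± 0.0876), Tnc (0.294 ± 0.0872) and Has3 (0.249 ± 0.0521). Vcan overlapped Acan and Tnc overlapped Has3 in range. Acan encodes aggrecan, the lectican most used to mark perineuronal nets, and its deposited counts in vehicle contralateral libraries were 72 to 112.

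The order of these levels was not the same in the 4 groups. Hapln4 was in place 2 in both contralateral groups, in place 3 in vehicle peri-infarct tissue at 16.7 ± 3.93 CPM per kb and in place 4 in peri-infarct tissue labelled HPBCD at 13.0 ± 8.73 CPM per kb. Tnc was in place 9 in vehicle contralateral tissue and in place 7, above Vcan, in peri-infarct tissue labelled HPBCD, where its level was 1.84 ± 0.355 CPM per kb and its range overlapped that of Vcan (1.49 ± 0.187). Bcan was first and Has3 was in place 9 or 10 in every group. Dividing by the longest transcript instead of the exon union raised Ptprz1 by the largest factor, since its exon union is 14245 bp and its longest transcript 8068 bp, and it exchanged places with Hapln4 in vehicle peri-infarct tissue and with Ncan in peri-infarct tissue labelled HPBCD.

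**Figure D1:**
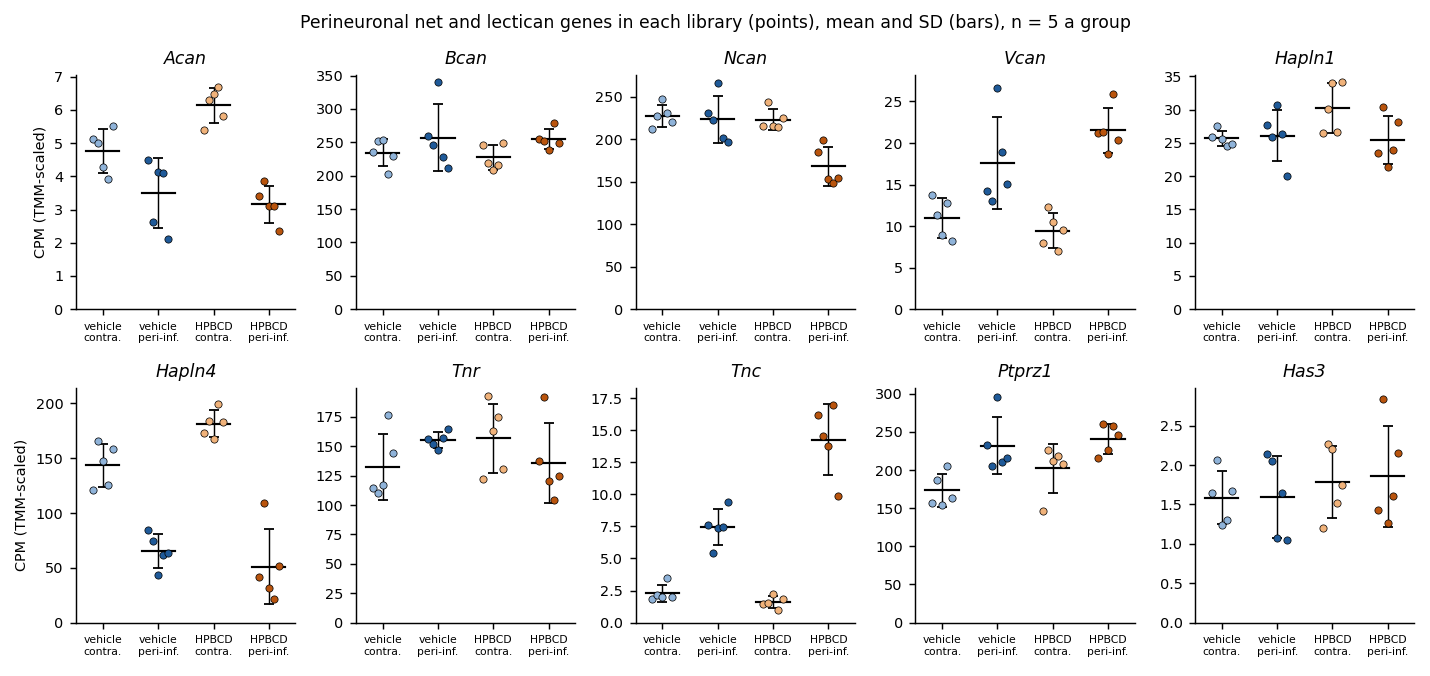
CPM (TMM-scaled, vertical axis from 0) of each of the 10 genes in each library (points) by group, with the group mean and SD (bars, n = 5). The peri-infarct points of Tnc lie above all contralateral points and those of Hapln4 below them, under either treatment label, while Bcan, Hapln1, Tnr and Has3 overlap between regions.

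In the genome each lectican gene has a link protein gene as its protein-coding neighbour on 1 side. In the GENCODE M21 annotation of GRCm38 these were Hapln3 after Acan with a gap of 2 bp, Hapln2 after Bcan (21519 bp), Hapln4 before Ncan (2222 bp) and Hapln1 before Vcan (43659 bp). Both genes of the last 2 pairs are among the 10. Ncan (ENSMUSG00000002341, chromosome 8, 70093085 to 70120873, minus strand) and Hapln4 (ENSMUSG00000007594, chromosome 8, 70083457 to 70090862, plus strand) form 1 of them, and Vcan (ENSMUSG00000021614, chromosome 13, 89655312 to 89742509, minus strand) and Hapln1 (ENSMUSG00000021613, chromosome 13, 89539796 to 89611652, plus strand) form the other.

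The other members lie apart from each other. Acan (ENSMUSG00000030607) spans 79053483 to 79115099 of chromosome 7 on the plus strand, and Bcan (ENSMUSG00000004892) spans 87987531 to 88000230 of chromosome 3 on the minus strand. Tnr (ENSMUSG00000015829) lies on chromosome 1 at 159523769 to 159931729, plus strand, and Tnc (ENSMUSG00000028364) on chromosome 4 at 63959785 to 64047015, minus strand. Ptprz1 (ENSMUSG00000068748) lies on chromosome 6 at 22875502 to 23052916, plus strand, and Has3 (ENSMUSG00000031910) on chromosome 8 at 106870242 to 106884566, plus strand. All values are counts over the exons of each gene. Exons of 3 members overlap a gene on the opposite strand, Tnr with Gm38039 over 443 bp, Tnc with 8030451A03Rik over 176 bp and Has3 with Chtf8 over 352 bp (3.44%, 2.27% and 5.52% of their exon bases), and the strand setting of the counting is not given in the sources used here, so a small share of those counts may belong to the partner.

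The promoter sequences below belong to the genes called between regions with the HPBCD label for which the RefSeq table for GRCm38.p6 holds an entry. An entry was found for 8 of the 10 genes, without Hapln4 and Has3. Each is the 250 bases before the annotated transcript start, 5′ to 3′ on the strand of the gene. Capitals mark the letters of 4 motifs on either strand, which are TATAAA for the TATA box, CCAAT for the box of that name, GGGCGG for the GC box and TGANTCA for the AP-1 site.
Tnc, chr4:64047016-64047265, minus strand: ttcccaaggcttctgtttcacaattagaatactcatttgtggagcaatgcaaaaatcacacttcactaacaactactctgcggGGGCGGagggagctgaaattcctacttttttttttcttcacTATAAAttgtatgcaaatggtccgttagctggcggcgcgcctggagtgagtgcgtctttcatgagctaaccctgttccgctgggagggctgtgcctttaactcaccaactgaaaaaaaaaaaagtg
Vcan, chr13:89742513-89742762, minus strand: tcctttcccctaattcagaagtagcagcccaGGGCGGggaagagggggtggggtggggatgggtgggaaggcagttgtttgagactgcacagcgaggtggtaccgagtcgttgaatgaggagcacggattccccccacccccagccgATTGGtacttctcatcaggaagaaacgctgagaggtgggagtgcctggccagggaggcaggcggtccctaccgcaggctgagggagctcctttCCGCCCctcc
Acan, chr7:79052976-79053225, plus strand: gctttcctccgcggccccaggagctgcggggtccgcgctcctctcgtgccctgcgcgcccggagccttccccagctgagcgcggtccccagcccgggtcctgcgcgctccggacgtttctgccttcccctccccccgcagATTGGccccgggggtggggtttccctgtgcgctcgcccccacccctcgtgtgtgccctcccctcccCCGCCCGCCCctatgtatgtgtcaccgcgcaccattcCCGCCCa
Ncan, chr8:70120845-70121094, minus strand: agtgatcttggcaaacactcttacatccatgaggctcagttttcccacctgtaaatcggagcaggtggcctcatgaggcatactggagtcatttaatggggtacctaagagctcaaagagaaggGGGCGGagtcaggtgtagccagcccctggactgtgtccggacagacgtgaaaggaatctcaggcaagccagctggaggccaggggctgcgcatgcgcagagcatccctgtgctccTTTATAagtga
TATAAA was found before Tnc and, on the other strand, before Ncan, and in 12.4% of all 32851 windows of this length in the table. GGGCGG was found in all 4 windows shown and in 32.7% of all windows, CCAAT in those of Vcan and Acan and in 33.8% of all windows. TGANTCA was in none of the 4 windows shown and in 6.75% of all windows. Among these letters, none was present before both Tnc and Vcan, the genes higher beside the infarct, and absent before both Acan and Ncan. The table holds a further start of Tnc a short way downstream. A match says only that the letters are present.

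In vehicle mice, peri-infarct tissue was set against contralateral tissue to ask how the net genes stand beside an infarct of 7 weeks. Tnc, Vcan and Ptprz1 were higher beside the infarct and Hapln4 was lower, so that 4 of the 10 genes were called, against 20.2% of the 15801 genes tested. Of all genes 10.5% were called higher, beside 3 of the 10, and 9.7% lower, beside 1 of the 10. A gene is called when its Benjamini-Hochberg adjusted p from edgeR, over all genes tested, is under 0.05. The groups of 5 did not overlap for 3 of the 10 (Tnc, Ptprz1 and Hapln4), against 13.4% of all genes. In bulk tissue, fewer cells of a type, less RNA per cell and a difference in the tissue dissected cannot be told apart.

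Tnc encodes tenascin-C, a matrix protein that is scarce in the adult cortex and is made by glia after injury. In vehicle contralateral libraries its level was 1.81, 2.18, 1.96, 3.48 and 2.02 CPM in replicates 1 to 5. In vehicle peri-infarct libraries it was 7.60, 5.43, 7.34, 7.44 and 9.43 CPM. The lowest peri-infarct library was above the highest contralateral one, and the log2 fold change was 1.69 ± 0.207 (SE, adjusted p = 0.00146 by edgeR), a 3.22-fold difference.

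Hapln4 moved the other way. Its vehicle contralateral levels were 121, 166, 147, 125 and 159 CPM and its peri-infarct levels 84.4, 74.2, 43.2, 62.1 and 63.2 CPM. The groups did not overlap, and the log2 fold change was -1.15 ± 0.158 (adjusted p = 0.00187 by edgeR), a fold of 0.451. The other link protein gene, Hapln1, was at 24.6 to 27.5 CPM in contralateral and 20.1 to 30.7 CPM in peri-infarct libraries, with a log2 fold change of 0.01 and a 95% interval of -0.22 to 0.25.

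Among the lecticans, Vcan, whose product versican is made by oligodendrocyte precursors and other glia, rose. Its levels were 13.7, 11.4, 8.89, 12.8 and 8.27 CPM in contralateral and 14.2, 13.0, 26.7, 18.9 and 15.1 CPM in peri-infarct libraries. The groups touched, since peri-infarct replicate 2 was below contralateral replicate 1, and the log2 fold change was 0.66 ± 0.212 (adjusted p = 0.0459 by edgeR). The call was lost in edgeR with the pairs of libraries as a block (adjusted p = 0.072) and without any 1 of vehicle peri-infarct replicates 3, 4 and 5 and vehicle contralateral replicates 2, 3 and 5 (adjusted p from 0.0538 to 0.1). Without peri-infarct replicate 3, the highest library, the value was 0.48. Ptprz1 was at 156, 187, 155, 205 and 164 CPM in contralateral and 233, 205, 296, 210 and 216 CPM in peri-infarct libraries, with a log2 fold change of 0.41 ± 0.119 (adjusted p = 0.0319 by edgeR). Its groups met at 205 CPM without crossing. Its edgeR call too was lost with the block (adjusted p = 0.0665) and without vehicle peri-infarct replicate 1 (0.0603) or vehicle contralateral replicate 3 (0.0645) or 5 (0.0651).

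The remaining lecticans were not called in vehicle mice. Acan was at 5.11, 5.01, 4.27, 3.91 and 5.51 CPM in contralateral and 4.49, 2.61, 4.12, 4.10 and 2.11 CPM in peri-infarct libraries, so that replicates 2 and 5 were low and the other 3 lay within or close to the contralateral range. Its log2 fold change was -0.46 with an interval of -0.94 to 0.02. Bcan (0.12, interval -0.15 to 0.40) and Ncan (-0.03, interval -0.24 to 0.17) had narrow intervals around 0, and Has3 (-0.01, interval -0.58 to 0.57), with 1.05 to 2.14 CPM in the peri-infarct libraries, a wide one. Tnr, which encodes tenascin-R of mature nets, was at 0.22 with an interval of -0.04 to 0.48. Without vehicle contralateral replicate 4, its highest contralateral library at 177 CPM, Tnr was called at 0.34 (adjusted p = 0.0135 by edgeR) and 5 of the 10 genes were called, whereas 2 were called without vehicle contralateral replicate 3 or 5. Without vehicle contralateral replicate 1, the library rich in striatal markers, the 4 calls stood, with Tnc at 1.63, Hapln4 at -1.19, Vcan at 0.77 and Ptprz1 at 0.39.

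The same regional question was put to the libraries labelled HPBCD. There 5 of the 10 genes were called, 2 higher and 3 lower, beside 54.6% of the 16047 genes tested, 30.3% higher and 24.3% lower. Tnc and Vcan were higher beside the infarct and Hapln4, Acan and Ncan were lower. The groups of 5 did not overlap for any of these 5 genes, and of all genes 42.5% had groups that did not overlap.

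Tnc was at 1.45, 1.51, 2.21, 0.989 and 1.86 CPM in contralateral and 16.2, 14.5, 13.8, 16.9 and 9.91 CPM in peri-infarct libraries labelled HPBCD. Its log2 fold change was 3.15 ± 0.211 (adjusted p = 4.96e-07 by edgeR), a fold of 8.87. Vcan was at 7.98, 12.3, 10.5, 7.00 and 9.58 CPM in contralateral and 21.2, 21.3, 18.7, 25.9 and 20.3 CPM in peri-infarct libraries. Its lowest peri-infarct library was above its highest contralateral one, with a log2 fold change of 1.18 ± 0.151 (adjusted p = 3.13e-05 by edgeR).

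Hapln4 fell by the largest factor of the 3 lower genes. Contralateral libraries labelled HPBCD held 173, 184, 168, 200 and 183 CPM and peri-infarct libraries 41.1, 109, 31.3, 21.6 and 51.5 CPM. Peri-infarct replicate 2 was the highest of its group, and replicate 4 was the lowest. The log2 fold change was -1.82 ± 0.348 (adjusted p = 0.000715 by edgeR), a fold of 0.284. Hapln1, by contrast, was at -0.25 with an interval of -0.52 to 0.02 and was called without HPBCD peri-infarct replicate 2 (-0.34, adjusted p = 0.0219 by edgeR).

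Acan fell here. It was at 5.39, 6.30, 6.48, 6.69 and 5.81 CPM in contralateral and 3.41, 3.85, 3.10, 3.09 and 2.34 CPM in peri-infarct libraries labelled HPBCD, with a log2 fold change of -0.95 ± 0.161 (adjusted p = 0.000285 by edgeR). Every contralateral library was above every peri-infarct library. Ncan, the neurocan gene, was at 216, 243, 216, 214 and 225 CPM in contralateral and 186, 199, 153, 149 and 154 CPM in peri-infarct libraries. Its groups did not overlap either, and the difference was smaller, at -0.40 ± 0.108 (adjusted p = 0.00661 by edgeR). Bcan was the lectican that was not called, at 0.16 with an interval of -0.02 to 0.35.

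The intervals of Tnr, Ptprz1 and Has3 included 0. Tnr was at -0.20 (interval -0.59 to 0.19) and was called as lower without HPBCD peri-infarct replicate 2 (-0.38, adjusted p = 0.0306 by edgeR), its highest library there at 192 CPM. Ptprz1 was at 0.25 (interval -0.01 to 0.52) and was called by edgeR with the pairs as a block (0.27, adjusted p = 0.038). Has3 was at 0.06 (interval -0.55 to 0.67). Without HPBCD contralateral replicate 4, the library that stood apart in its read shares, the 5 calls stood, with Tnc at 3.03, Vcan at 1.09, Hapln4 at -1.78, Acan at -0.92 and Ncan at -0.42.

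**Figure D2:**
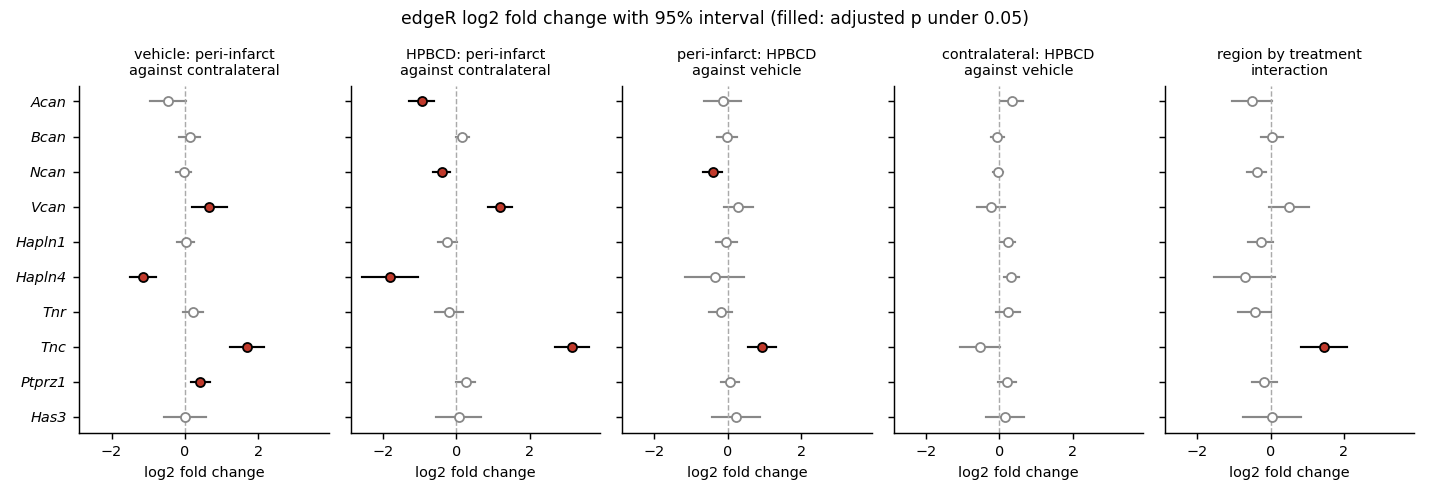
Log2 fold change (horizontal axis) of each gene in the 5 comparisons, with its 95% interval, from edgeR, filled where the adjusted p was under 0.05. Tnc is to the right of 0 and Hapln4 to the left in both regional panels, and in the interaction panel Tnc is the filled gene at 1.45.

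Peri-infarct libraries labelled HPBCD were then set against those labelled vehicle. Tnc was higher and Ncan lower with the HPBCD label, so that 2 of the 10 genes were called, against 21.4% of 16224 genes. Of all genes 12.4% were higher, beside 1 of the 10, and 9% lower, beside 1 of the 10. The median log2 fold change over the 10 genes was -0.03, beside 0.01 over all genes tested. Tnc levels, given above, were 5.43 to 9.43 CPM with the vehicle label and 9.91 to 16.9 CPM with the HPBCD label, without overlap, which was the case for 13.4% of all genes. Its log2 fold change was 0.93 ± 0.171 (adjusted p = 0.0128 by edgeR).

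Ncan was at 231, 222, 266, 202 and 197 CPM in peri-infarct libraries labelled vehicle, and its level with the HPBCD label was 149 to 199 CPM. The ranges overlapped by 1 library on each side, and the log2 fold change was -0.42 ± 0.118 (adjusted p = 0.0325 by edgeR). The call was lost without any 1 of vehicle peri-infarct replicates 1 and 2 and HPBCD peri-infarct replicates 3, 4 and 5, which left Tnc as the 1 gene called, and where the value was -0.37 to -0.41 and the adjusted p 0.0708 to 0.085. Hapln4 was at -0.36 with an interval of -1.17 to 0.45, the widest of the 10 genes, and Tnr at -0.20 (-0.52 to 0.12). HPBCD peri-infarct replicate 2 decided both, since without it Hapln4 was at -0.86 (adjusted p = 0.0249 by edgeR) and Tnr at -0.37 (adjusted p = 0.0136 by edgeR) and 4 of the 10 genes were called. Vcan was at 0.28 (-0.12 to 0.69), and was called at 0.49 (adjusted p = 0.0223 by edgeR) without vehicle peri-infarct replicate 3. Acan (-0.14, -0.66 to 0.37), Bcan (-0.02, -0.29 to 0.25), Hapln1 (-0.04, -0.33 to 0.24), Ptprz1 (0.05, -0.20 to 0.30) and Has3 (0.21, -0.44 to 0.87) were not called.

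In contralateral tissue the labels were compared in the same way, to ask whether the treatment groups differed away from the infarct. Of the 10 genes 0 were called by edgeR, and 0% of the 15469 genes tested were called, although 7.91% had an unadjusted p under 0.05 and DESeq2 called 56 genes, none of them a member. At that unadjusted level 3 members were higher with the HPBCD label: Hapln4 (0.33, interval 0.13 to 0.53), Acan (0.35, interval 0.06 to 0.65) and Hapln1 (0.23, interval 0.03 to 0.43), with adjusted p of 0.503, 0.555 and 0.561. In the same comparison 4 of 9 parvalbumin interneuron, 3 of 10 neuron and 7 of 8 striatal neuron markers had an unadjusted p under 0.05 by edgeR. By sign alone, 8 of 9 parvalbumin interneuron and 7 of 10 neuron markers were higher with the HPBCD label. All 8 striatal neuron markers were lower with it. The striatal sum in vehicle contralateral replicate 1 was 3375 CPM, against a group median of 248 CPM. With the HPBCD label the striatal sum was 204 to 248 CPM. The parvalbumin interneuron sum was 970 to 1209 CPM with the vehicle and 1279 to 1498 CPM with the HPBCD label, and its part in these values was not tested. Hapln4 was the member whose groups did not overlap, at 121 to 166 CPM with the vehicle label and 168 to 200 CPM with the HPBCD label, and 1.51% of all genes had groups that did not overlap. Tnc was at -0.52 with an interval of -1.07 to 0.03, and its highest library, vehicle contralateral replicate 4, was at 3.48 CPM. For the more abundant genes the intervals were narrow, at -0.18 to 0.10 for Ncan and -0.23 to 0.12 for Bcan.

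Whether the regional difference itself depended on the treatment label was tested as the region by treatment interaction over all 20 libraries. Tnc was called, so that 1 of the 10 genes passed, against 9.41% of 16758 genes. Of all genes 5.03% were more positive with the HPBCD label, Tnc among them, and 4.38% more negative. Its regional log2 difference was larger with the HPBCD label by 1.45 ± 0.299 (adjusted p = 0.0156 by edgeR), a factor of 2.73. It was 1.33 (adjusted p = 0.0309 by edgeR) without HPBCD contralateral replicate 4 and 1.52 (0.0239) without vehicle contralateral replicate 1. The interactions of Ncan (-0.38, adjusted p = 0.0644), Acan (-0.50, 0.212), Tnr (-0.44, 0.195), Hapln4 (-0.70, 0.247) and Vcan (0.50, 0.219) did not pass edgeR's test, so the calls of Acan and Ncan under 1 label and not under the other were not shown to differ between labels. Ncan passed with DESeq2 (adjusted p = 0.0361) and with the pairs as a block (0.0412). In limma voom with quality weights, which weigh down variable libraries, Ncan (0.0196), Hapln4 (0.0156) and Tnr (0.0114) passed, and without HPBCD peri-infarct replicate 2 the same 3 genes passed in edgeR at 0.0243, 0.0101 and 0.0449. Vcan passed without vehicle peri-infarct replicate 3 (0.70, adjusted p = 0.0467 by edgeR).

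Libraries of the same replicate number and treatment share an identifier in the names of their tables, which is taken as the mouse they came from, although the labels do not say so. Each regional difference is also given within such a pair. Tnc was higher beside the infarct in 5 of 5 pairs labelled vehicle and 5 of 5 labelled HPBCD, by 1.00 to 1.98 and 2.14 to 3.55 on the log2(CPM + 0.5) scale. Vcan and Ptprz1 were also higher in 10 of 10 pairs, and Hapln4 was lower in 10 of 10 pairs. The ranges of Tnc for the 2 labels did not meet. Hapln4 was lower by 0.52 to 1.76 in the pairs labelled vehicle and by 0.75 to 3.18 in those labelled HPBCD, with ranges that overlapped.

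Acan and Ncan had fewer lower pairs with the vehicle label. Acan was lower in 4 of 5 vehicle pairs, between -1.21 and 0.06, and in 5 of 5 HPBCD pairs, between -1.15 and -0.59. Ncan was lower in 3 of 5 vehicle pairs (-0.19 to 0.12) and in 5 of 5 HPBCD pairs (-0.55 to -0.22). The vehicle pairs of Acan lay apart, with pairs 2 and 5 at -0.82 and -1.21 and the other 3 between -0.17 and 0.06. Tnr was higher in 4 of 5 vehicle pairs (-0.17 to 0.47) and lower in 4 of 5 HPBCD pairs (-0.75 to 0.17), a difference in sign that edgeR's interaction test did not call. Bcan differed by at most 0.43 in any pair.

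**Figure D3:**
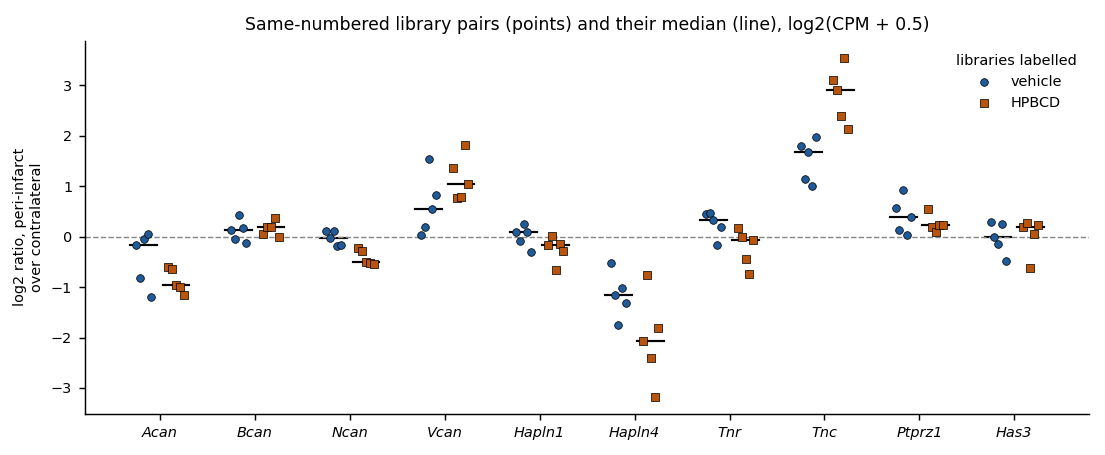
Log2 ratio of peri-infarct to contralateral level, on the log2(CPM + 0.5) scale, within each same-numbered pair (points) and the median (line) for pairs labelled vehicle (circles) and HPBCD (squares). The HPBCD pairs of Tnc, at 2.14 to 3.55, lie above the vehicle pairs, at 1.00 to 1.98, and all pairs of Hapln4 are below 0.

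The make-up of the lectican RNA pool followed from these levels. Counted per kilobase, Bcan made 63.6% ± 2.19 (SD, n = 5) of the summed lectican level in vehicle contralateral tissue, Ncan 34.9% ± 2.19, Vcan 0.846% ± 0.214 and Acan 0.704% ± 0.101. In vehicle peri-infarct tissue Bcan made 65.7% ± 1.34 and Ncan 32.6% ± 1.48. Vcan made 1.26% ± 0.262 and Acan 0.486% ± 0.134, so the ranking of the mean shares was Bcan, Ncan, Vcan and Acan in both regions. The range of each share overlapped between the regions.

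In tissue labelled HPBCD the major lecticans differed too. Bcan made 63.3% ± 2.32 and Ncan 35.1% ± 2.10 of the pool in contralateral tissue, and 71.3% ± 2.86 and 26.5% ± 2.93 in peri-infarct tissue. The lowest peri-infarct share of Bcan (67.7%) was above the highest contralateral one (65.9%), although the Bcan level itself was not called. The Vcan share went from 0.742% ± 0.166 to 1.69% ± 0.157 and the Acan share from 0.934% ± 0.125 to 0.480% ± 0.0718. These shares were compared by their ranges and were not tested.

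Ratios between genes were also taken within each library and not tested. The ratio of Vcan to Acan CPM per kb was 1.22 ± 0.341 in vehicle contralateral, 2.73 ± 0.818 in vehicle peri-infarct, 0.80 ± 0.169 in HPBCD contralateral and 3.60 ± 0.750 in HPBCD peri-infarct libraries. Hapln4 was 8.40 ± 1.04 times Hapln1 in vehicle contralateral and 3.86 ± 1.08 times in vehicle peri-infarct libraries. With the HPBCD label it was 7.42 to 11.2 times Hapln1 in contralateral and 1.36 to 5.39 times in peri-infarct libraries. Tnc was 0.0285 ± 0.00416 of Tnr in vehicle contralateral and 0.0791 ± 0.0129 in vehicle peri-infarct libraries, and 0.0176 ± 0.00615 and 0.182 ± 0.0585 in those labelled HPBCD. Of the neighbours in the genome, Hapln4 was 1.16 ± 0.159 of Ncan in vehicle contralateral and 0.547 ± 0.145 in vehicle peri-infarct libraries.

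**Figure D4:**
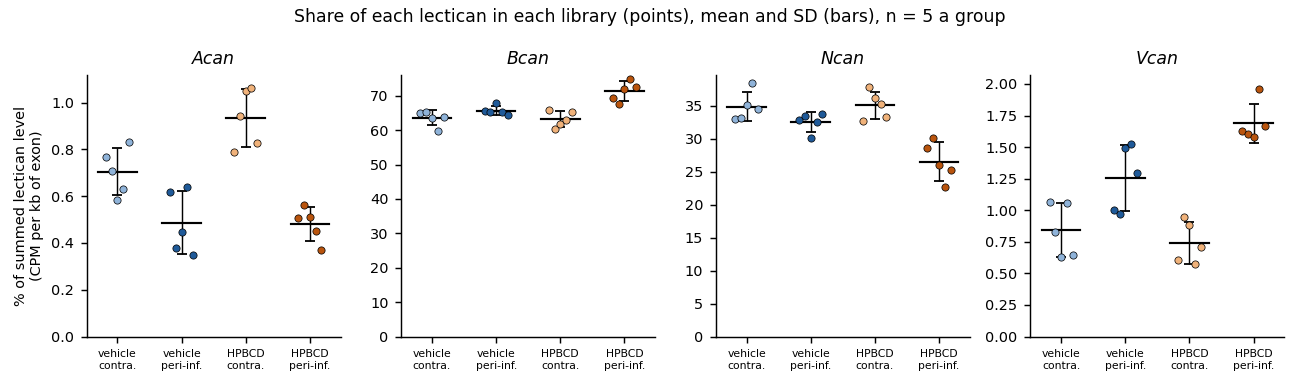
Share of each lectican in the summed level of the 4 lecticans (% of CPM per kb of exon, vertical axis from 0) in each library (points), with mean and SD (bars, n = 5). In peri-infarct libraries labelled HPBCD the Bcan share is 71.3% and the Ncan share 26.5% on average. The mean Vcan share is higher and the mean Acan share lower beside the infarct under both labels, with overlapping ranges under the vehicle label.

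Markers of several cell types moved with the regions, and their part in the results above was not tested. Pvalb, the parvalbumin gene of the neurons that most nets surround, was at 101 ± 35.4 CPM in vehicle contralateral and 21.3 ± 9.81 in vehicle peri-infarct libraries (log2 fold change -2.26 ± 0.337, adjusted p = 0.00235 by edgeR). In libraries labelled HPBCD it was at 134 ± 23.8 and 16.9 ± 7.28 CPM (-2.98 ± 0.246, adjusted p = 1.37e-06 by edgeR). Of 9 markers of parvalbumin interneurons, 5 were lower and 1 higher in vehicle mice (9.7% and 10.5% of all genes), and 7 were lower with the HPBCD label (24.3% of all genes). Their summed level was 970 to 1209 and 602 to 774 CPM in vehicle contralateral and peri-infarct libraries, and 1279 to 1498 and 415 to 669 CPM in those labelled HPBCD.

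General neuron markers, 10 in the list, were lower for 5 in vehicle and 10 in HPBCD-labelled peri-infarct tissue, beside 9.7% and 24.3% of all genes. Of all genes 10.5% and 30.3% were higher in these comparisons, which applies to the marker counts that follow. Their summed level was 10680 to 12759 and 7260 to 9779 CPM with the vehicle label and 12529 to 13522 and 3743 to 7277 CPM with the HPBCD label. HPBCD peri-infarct replicate 2, which had the highest Hapln4 and Tnr of its group, also had the highest neuron sum of its group, 7277 CPM, and replicate 4, with the lowest of both genes, the lowest sum, 3743 CPM. The 8 reactive astrocyte markers were called higher beside the infarct under both labels, of which Lcn2, Cd109 and Timp1 passed the filter on low counts only in comparisons that held peri-infarct libraries. Gfap was among them, at 225 ± 56.3 and 1669 ± 851 CPM in vehicle and 148 ± 21.4 and 3430 ± 864 CPM in HPBCD-labelled libraries. Of 7 markers of fibroblasts and meninges, 2 were higher in vehicle mice and 7 with the HPBCD label, where the sum was 79 to 160 CPM in contralateral and 513 to 1407 CPM in peri-infarct libraries. Oligodendrocyte precursor markers, 6 in the list, were higher for 4 and 5 and their sum was 228 to 285 and 263 to 374 CPM with the vehicle label. Microglia and macrophage markers (8) were higher for 7 and 8, astrocyte markers (8) for 4 and 5, and ependymal markers (5, 4 of them tested in vehicle) for 2 and 5. Of these, Ccdc153, Tmem212 and Dynlrb2 passed the filter only in comparisons that held peri-infarct libraries. Striatal neuron (8), oligodendrocyte (6) and endothelial (5) markers had 0 calls by edgeR in vehicle mice, where 0 also had an unadjusted p under 0.05, and with the HPBCD label 8, 6 and 1 of them were higher and 1 endothelial marker was lower. For the striatal markers the vehicle contralateral group held replicate 1 at a sum of 3375 CPM, while its other 4 libraries (197 to 283 CPM) were below every vehicle peri-infarct library (332 to 1909 CPM).

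Markers also differed between labels in peri-infarct tissue, where their part in the calls of Tnc, Ncan and the related lists was not tested. Of all genes 12.4% were higher and 9% lower there. Of the neuron markers 9 of 10 were lower with the HPBCD label, and of the fibroblast and meninges markers 7 of 7 were higher. Reactive astrocyte markers were higher for 4 of 8, astrocyte markers for 3 of 8 and ependymal markers for 3 of 5. Oligodendrocyte (1 of 6), microglia and macrophage (1 of 8) and endothelial (1 of 5) markers had fewer calls, all higher. Of these 3 lists 5, 3 and 1 markers had an unadjusted p under 0.05 by edgeR. By edgeR 0 of 9 parvalbumin interneuron, 0 of 6 oligodendrocyte precursor and 0 of 8 striatal neuron markers were called, with 4, 1 and 0 at an unadjusted p under 0.05. In the interaction, where 5.03% of all genes were more positive and 4.38% more negative, 7 of 10 neuron and 3 of 9 parvalbumin interneuron markers were more negative with the HPBCD label. There 6 of 7 fibroblast and meninges, 4 of 5 ependymal and 3 of 8 reactive astrocyte markers were more positive. So were 2 of 6 oligodendrocyte, 1 of 8 astrocyte and 1 of 5 endothelial markers.

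Within groups, some of the 10 genes followed a marker sum and others did not. Over the deviations of the 20 libraries from their group means, Pearson's r of Hapln4 with the neuron sum was 0.89, of Ptprz1 with the astrocyte sum 0.77, of Bcan with the astrocyte sum 0.56 and of Tnr with the neuron sum 0.56. These are descriptions over libraries that share depth and dissection, with no test. Bcan had higher values with the endothelial sum (0.70) and the microglia and macrophage sum (0.59). Acan had 0.46 with the astrocyte sum, its highest, and 0.28 with the parvalbumin interneuron sum. Tnc had 0.17 with the reactive astrocyte sum and -0.60 with the parvalbumin interneuron sum, its largest in size. Among the members themselves, Hapln4 and Has3 (0.64), Hapln1 and Has3 (0.63), Vcan and Ptprz1 (0.55) and Hapln4 and Tnr (0.55) were the pairs with the highest values.

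The genes whose CPM followed each member most closely were taken over the 20 libraries, from 11775 genes with a mean of at least 5 CPM. For Tnc they were Cd44, Cotl1 and Flnc (r = 0.97, 0.97 and 0.96), whose r fell to 0.51, 0.38 and 0.39 for deviations from the group means, so most of the likeness lay between groups. For Hapln4 they were Camta1, Nefl, a neurofilament gene, and Kcnj3, all at 0.98 and still at 0.94, 0.94 and 0.92 within groups. For Tnr they were Itsn1, Uhmk1 and Wdfy3, each at 0.95 over all libraries and 0.95, 0.97 and 0.96 within groups. Vcan was followed by Kcne1l, Papss2 and Plcg2 (0.95, 0.94 and 0.94), Ncan by Scaf1, Grik5 and Nptx2 (0.92, 0.92 and 0.91), and Ptprz1 by Mfap3l and Prex2 (0.94 and 0.93). Acan was followed by Ubash3b, Hgsnat and Ahcyl1 (0.92, 0.91 and 0.89) and Bcan by Miip, Slc9a3r1 and Ntsr2 (0.86, 0.83 and 0.80). The leading values were lowest for Has3 with Erich1, Cabp7 and Pcdh20 (0.74, 0.61 and 0.60) and Hapln1 with Prkca, Emx2 and Zfpm1 (0.71, 0.71 and 0.70).

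Genes that build, modify, cut or bind the same matrix were taken as 8 lists of 69 genes. In vehicle mice 15 were higher and 2 lower beside the infarct of 64 tested by edgeR, beside 10.5% and 9.7% of all genes. With the HPBCD label 30 were higher and 14 lower of 66, beside 30.3% and 24.3% of all genes. Between labels in peri-infarct tissue 15 were higher and 9 lower with the HPBCD label of 67, beside 12.4% and 9% of all genes. In contralateral tissue 0 of 63 were called by edgeR (4 at an unadjusted p under 0.05, 0 by DESeq2), and 12 of 67 had an interaction, beside 9.41% of all genes. The 24 list genes called between labels in peri-infarct tissue became 6 without HPBCD peri-infarct replicate 3, 14 without its replicate 4, and 12 and 11 without vehicle peri-infarct replicates 1 and 2. The 12 interactions became 30 and 20 without HPBCD peri-infarct replicate 2 and vehicle peri-infarct replicate 3. They became 5, 3, 4 and 3 without HPBCD contralateral replicates 1, 2, 4 and 5, and 1 and 3 without HPBCD peri-infarct replicates 3 and 4. Without vehicle contralateral replicates 1, 2 and 3 they were 7, 6 and 7, and without vehicle peri-infarct replicates 1 and 2 they were 3 and 2. The median log2 fold change of the tested list genes was 0.15, 0.35 and 0.14 in the 2 regional comparisons and the peri-infarct treatment comparison, beside 0.01, 0.03 and 0.01 over all genes tested.

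Hyaluronan receptors and enzymes of hyaluronan breakdown (8 genes, 7 tested) were higher for 2 in vehicle and 5 in HPBCD-labelled tissue, beside 10.5% and 30.3% of all genes. Cd44, the cell-surface receptor for hyaluronan, rose by 3.22 ± 0.337 in vehicle (adjusted p = 0.00115 by edgeR) and by 4.88 ± 0.256 with the HPBCD label (adjusted p = 1.23e-07 by edgeR), from a mean of 2.60 to 24.6 CPM and of 1.80 to 53.4 CPM. It was 1.11 higher with the HPBCD label in peri-infarct tissue (adjusted p = 0.0334 by edgeR) and had an interaction of 1.66 (0.0313). Tmem2, a cell-surface hyaluronidase, rose in both (0.41 and 0.68), and Lyve1, a hyaluronan receptor of lymphatic vessels, rose with the HPBCD label (1.38). Hyal1 rose with that label (1.13) and was 0.85 higher with it in peri-infarct tissue, although 50.8% of its exon bases overlap Naa80 and make its counts uncertain. The link proteins and synthases outside the 10 genes (4, of which 3 were tested in each regional comparison) had 1 call in the HPBCD-labelled tissue, Hapln2 at 1.16 ± 0.147, a link protein of myelinated axon nodes that was also 0.66 higher with the HPBCD label in peri-infarct tissue, and 0 calls by edgeR in vehicle tissue (0 at an unadjusted p under 0.05).

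Enzymes that start and extend chondroitin chains (12 genes) split in both directions, with 3 higher and 1 lower in vehicle (10.5% and 9.7% of all genes) and 2 higher and 4 lower with the HPBCD label (30.3% and 24.3% of all genes). B3gat3, which completes the linker on the core protein, fell by 0.54 and 1.05 in these comparisons, and Chsy1, a chain polymerase, rose by 0.47 and 0.58. In vehicle mice Xylt1, which starts the chain, rose by 1.12, and Chpf2 rose by 0.30 but overlaps Smarcd3 on the opposite strand over 44.1% of its exon bases. With the HPBCD label Csgalnact2 rose by 0.36, and Chsy3 (-0.83) and B4galt7 (-0.53) were lower. Between labels in peri-infarct tissue Csgalnact2 was higher (0.42) and Chsy3 (-0.86), B3gat3 (-0.37) and Chpf2 (-0.31) were lower with the HPBCD label, and B3gat3 had an interaction of -0.53. Sulfation and epimerization enzymes (10 genes, 9 tested) were called in 1 direction, higher for 3 in vehicle (Dsel 0.94, Chst3 0.85 and Chst11 0.50; 10.5% of all genes) and for 7 with the HPBCD label (30.3% of all genes). The largest were Dse, the epimerase that turns chondroitin into dermatan sulfate, at 2.55 ± 0.218, and the sulfotransferase genes Ust at 1.41 and Chst14 at 1.40. Between labels in peri-infarct tissue Dse (1.54), Chst14 (1.09) and Chst15 (0.41) were higher with the HPBCD label, and Dse had an interaction of 1.70 (adjusted p = 0.0167 by edgeR).

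Proteases that cut lecticans (9 genes) were higher for 2 in vehicle mice (10.5% of all genes), Mmp2 (1.32 ± 0.281) and Adamts9 (0.92 ± 0.165). With the HPBCD label 7 were higher and 1 was lower, beside 30.3% and 24.3% of all genes. Mmp3, a matrix metalloprotease and 1 of the 7, passed the filter on low counts only in comparisons that held peri-infarct libraries labelled HPBCD. Its value of 6.51 ± 0.939 rests on contralateral libraries with a mean of 0.135 CPM, 3 of them at 0 counts, and so depends on the prior count of the fit. Mmp2 (2.47 ± 0.239) and Adamts9 (2.04 ± 0.288) followed, and Adamts8 fell by 1.14. Adamts15 (1.57), Adamts1 (0.88) and Mmp2 (0.88) were higher with the HPBCD label in peri-infarct tissue (12.4% of all genes), and 4 genes of the list, Adamts15 (1.31), Adamts5 (1.28), Adamts9 (1.10) and Adamts1 (1.02), had an interaction (5.03% of all genes were more positive). Adamts4, which encodes an aggrecanase, was called with the HPBCD label alone (1.01 ± 0.134), and its interaction did not pass.

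Receptors and proteins that bind nets (11 genes) had 7 lower and 1 higher with the HPBCD label, where 24.3% of all genes were lower and 30.3% higher, and 1 lower and 1 higher in vehicle mice (9.7% and 10.5%). Rtn4r, the Nogo receptor that also binds chondroitin sulfate, fell by 0.57 ± 0.147 in vehicle and by 1.54 ± 0.211 with the HPBCD label, with an interaction of -0.99 (adjusted p = 0.0317 by edgeR). Nptx2 (-0.90) and Lingo1 (-0.89) had an interaction as well. Nptx2, a neuronal pentraxin held in nets, and Nptx1 fell by 1.06 and 0.99 with the HPBCD label, and Lingo1, a co-receptor of Rtn4r, by 0.96. Between labels in peri-infarct tissue 5 of the list were lower with the HPBCD label, beside 9% of all genes. The largest were Rtn4r and Nptx2, by 0.97 each, and Rtn4rl2, by 0.93. Ptprf, a receptor phosphatase of the same family as Ptprs, rose by 0.90 and 1.29, while Ptprs, a receptor for chondroitin sulfate, fell by 0.45 with the HPBCD label.

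Ligands of Ptprz1 and tenascins (6 genes) had 0 calls by edgeR in vehicle mice (1 at an unadjusted p under 0.05), beside 20.2% of all genes. With the HPBCD label Mdk, which encodes midkine, rose by 1.41 ± 0.205 and Cntn1 fell by 0.56. Of all genes 30.3% were higher and 24.3% lower there. Mdk was 1.04 higher and L1cam 0.53 lower with the HPBCD label in peri-infarct tissue, beside 12.4% and 9% of all genes. Mdk also had an interaction of 1.10 (adjusted p = 0.0276 by edgeR). Ptn, which encodes pleiotrophin, was at 606 and 564 CPM in vehicle and 691 and 707 CPM in HPBCD-labelled contralateral and peri-infarct libraries and was not called.

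The other chondroitin sulfate proteoglycan genes (9) were higher for 4 in vehicle mice (10.5% of all genes), Dcn (1.80), Sdc1 (1.11), Sdc4 (0.78) and Cspg4 (0.52). With the HPBCD label 6 were higher and App was lower (-0.32), beside 30.3% and 24.3% of all genes. Dcn, the decorin gene of fibroblasts, had the largest value, 4.43 ± 0.429, from a mean of 9.24 to 200.7 CPM, and Sdc1 (2.57) and Bgn (2.49) came next. Between labels in peri-infarct tissue Dcn (2.62), Sdc1 (1.84) and Bgn (1.27) were the largest of 4 higher genes (12.4% of all genes), and Dcn had an interaction of 2.62. Sdc1, like Mmp2 above, is also one of the 32 genes of the label check, which moved against the direction named for them. So are Gfap and Serpina3n of the reactive astrocyte markers, Cd68 and Cx3cr1 of the microglia and macrophage markers, and Nefl. Dcn is itself among the fibroblast and meninges markers given above, and Cspg4 among the oligodendrocyte precursor markers. The fibroblast and meninges markers moved in the same libraries as Bgn, and their part was not tested.

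**Figure D5:**
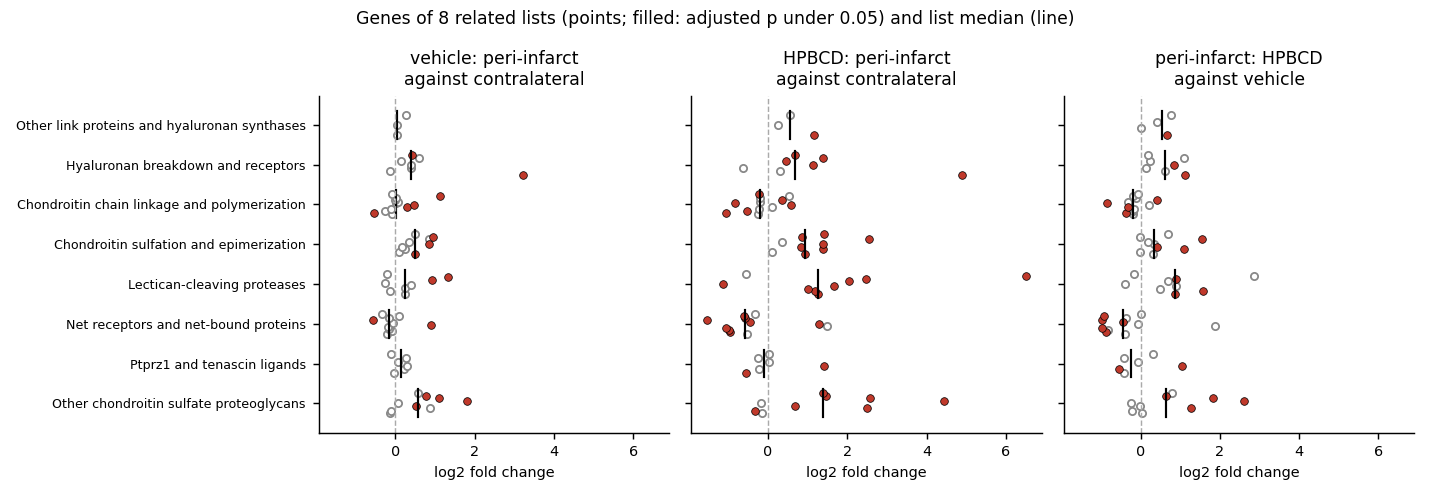
Log2 fold change (horizontal axis) of the tested genes of 8 related lists (points, filled where the edgeR adjusted p was under 0.05) and the list median (line) in 3 comparisons. Cd44 lies at 3.22 in the vehicle and 4.88 in the HPBCD regional panel, Mmp3 lies at 6.51 in the latter, and the net receptors have a median below 0 in all 3 panels.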

How the data were processed

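RNA of 20 libraries of peri-infarct and contralateral tissue, in 4 groups of 5, was analysed. Per the labels and methods, the authors demultiplexed with bcl2fastq 2.19, trimmed with Trimmomatic 0.32, aligned to GRCm38 with STAR 2.5.2b and counted read pairs per gene with HTSeq. The deposited values are raw counts per gene, and the annotation release and strand option are not given in the sources used here. The 5 summary lines that close each table were not used (reads in no gene were 4.39% to 9.50% of read pairs), and 0 pairs of tables were identical. Of 46078 genes, 45143 matched GENCODE M21 by identifier.

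Each comparison was fitted with edgeR 4.0.16 (R 4.3.3, TMM scaling, filterByExpr, quasi-likelihood F test, Benjamini-Hochberg adjustment over all genes tested, threshold 0.05) on the libraries of its groups, and the interaction on all 20. The authors used DESeq2, which was an alternative here (1.42.0), as were RLE scaling, no filter, all groups in 1 fit, limma voom (3.58.1), a replicate block and leaving out each library. Levels are CPM with TMM factors, divided by exon length where genes are compared. The scripts were tested on simulated data.

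The 10 genes, the related lists and the markers were chosen with earlier results of these data known. From each list and comparison, up to 3 called genes that rose most and 3 that fell most, with a mean of at least 1 CPM, are named, along with the 3 genes most like each member, of which 1 is not reported here. Libraries of 1 number and treatment share an identifier in the names of their tables. Their deviations from the group means had a mean correlation of 0.127 over 10 pairs, 5 of them over 0.1. Same-numbered peri-infarct libraries of the 2 treatments, for which a number is only a name, had 0.153, so the pairing rests on the names and not on these correlations. P-values measure the spread between these libraries, which includes counting error.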

Additional observations from a re-analysis of the deposited data

Results flagged for a closer look

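Libraries were compared with the others of their group for each of the 10 genes, 40 groups in all, of which chance sets apart about 1 in 20. For Tnc, vehicle contralateral replicate 4 was far above its group, at 3.48 CPM against 2.18 CPM in the next library. Without it the vehicle regional log2 fold change of Tnc was 1.88 and its interaction 1.27 (adjusted p = 0.0148 by edgeR). For Ptprz1, HPBCD contralateral replicate 1 was far below its group, at 146 CPM against 208 CPM in the next library. Without it the HPBCD regional log2 fold change of Ptprz1 was 0.15 in place of 0.25, its contralateral difference between labels 0.31 in place of 0.21 and its interaction -0.27 in place of -0.17, none of them called by edgeR.

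The regional difference of Tnc differed between treatment labels by the interaction test, with a log2 value of 1.45 (adjusted p = 0.0156 by edgeR). Tnc was higher beside the infarct in 10 of 10 pairs.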

How the results depend on the processing

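Of 848 alternative values of the 50 fold changes of the 10 genes, 779 kept their direction and their side of the threshold, 16 lost a call, 16 gained one and 37 changed sign, 0 of these called in the reported fit. With the replicate block 2 members were called in the vehicle regional comparison (Tnc and Hapln4) and 2 in the interaction (Tnc and Ncan), 6 in the HPBCD regional comparison (Ptprz1 was added), and 1 gene in contralateral tissue. In the other comparisons the member counts were those reported. Between treatment labels a number is only a name, so the block joined unrelated libraries in those comparisons. DESeq2 called 56 genes in contralateral tissue, and 2514 genes, 2 members and 22 list genes in the interaction. No filter gave 2 genes in contralateral tissue, and limma voom 4110 genes, 4 members and 27 list genes in the interaction.

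Leaving out 1 library at a time gave 2000 to 3920 genes and 2 to 5 members in the vehicle regional comparison, 823 to 5339 genes, 1 to 4 members and 6 to 35 list genes between labels in peri-infarct tissue, and 529 to 3121 genes, 1 to 4 members and 1 to 30 list genes in the interaction. Values near 0 changed sign. Hapln1 in the vehicle regional comparison was -0.0020 with DESeq2, -0.0016 with RLE, -0.0014 with no filter, -0.0015 with the block and -0.040 to 0.099 without 1 library. Has3 was 0.0042 there with all 4 groups in 1 fit, -0.015 with no filter in the HPBCD regional comparison and -0.18 by voom in the interaction. Without 1 library, Ncan was -0.093 to 0.014 and Has3 -0.14 to 0.12 in the vehicle regional comparison, and Has3 -0.16 to 0.16 in the HPBCD one. Between labels in peri-infarct tissue Bcan was -0.075 to 0.10, Hapln1 -0.12 to 0.027 and Has3 -0.00060 to 0.35. In the interaction Bcan was -0.012 to 0.15 and Has3 -0.13 to 0.18. The cause was not tested.

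Acan, Tnc and Has3 were the members with the lowest counts, and the effect of depth on their values was not tested.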
